A study of Homo sapiens with 12 samples.

Results

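The 37 genes of the human mitochondrial genome were examined in U937, a myelomonocytic leukemia cell line. They were taken as all rows of the deposited expression table whose gene symbol starts with MT-, and they made up 37 of 197782 rows, with 13 mRNA genes, 2 rRNA genes and 22 tRNA genes. Each had a single annotated transcript. The 12 RNA-seq libraries came from 4 groups of 3, namely untreated cells and cells given decitabine (DAC, 200 nM), all-trans retinoic acid (ATRA, 1 µM) or both (DAC + ATRA). By the methods of the study, DAC was given in 3 daily pulses. ATRA, dissolved in DMSO, was added with the last pulse, so that exposure to ATRA was shorter than exposure to DAC. None of the 4 groups is labelled as a DMSO control. Decitabine, a hypomethylating agent, is incorporated into DNA, where it depletes DNA methyltransferases, while ATRA acts through nuclear retinoic acid receptors. All groups were the same cell line, the labels name no introduced allele, and they give 20% FCS and 5 ng/ml GM-CSF as medium. The methods of the study describe a medium with less FCS and name no GM-CSF, and which of them held for these libraries is not known. The labels put the untreated cells at 96 h and the treated cells at 72 h, whereas the design text gives 72 h for all, so that time and treatment cannot be told apart if the labels hold. The labels call the libraries technical triplicates, so that p-values measure only the spread between these libraries, which may be technical.

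The mitochondrial genome is a small circle that is transcribed from both strands into long precursors. The heavy strand is the template for most genes and the light strand for the others, and the tRNAs lie between the rRNAs and mRNAs, where their excision releases the neighbouring RNAs. The mRNAs encode core subunits of respiratory complexes I, III, IV and V, the rRNAs form the mitochondrial ribosome, and all proteins of transcription, RNA processing and translation are imported from the cytosol. Here 28 genes had the heavy strand as template (12 mRNA, 2 rRNA and 14 tRNA genes) and 9 the light strand (MT-ND6 and 8 tRNA genes).

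For 4 tRNA genes the normalized read count changed in at least 1 comparison, and their sequences are shown with their positions among the other genes. They are the hg38 reference sequence of the mitochondrial chromosome in transcript orientation, not the sequence of U937, and capitals mark the anticodon. MT-TF (chrM:577-647, + strand) carries phenylalanine, MT-TT (chrM:15888-15953, + strand) threonine, MT-TW (chrM:5512-5579, + strand) tryptophan and MT-TQ (chrM:4329-4400, − strand) glutamine.
MT-TF: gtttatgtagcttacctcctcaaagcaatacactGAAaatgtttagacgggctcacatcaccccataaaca
MT-TT: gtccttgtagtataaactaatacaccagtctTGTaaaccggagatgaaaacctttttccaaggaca
MT-TW: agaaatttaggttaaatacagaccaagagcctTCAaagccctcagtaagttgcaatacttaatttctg
MT-TQ: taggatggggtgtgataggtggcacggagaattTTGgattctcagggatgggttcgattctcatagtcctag
MT-TT and MT-TF lie at the ends of the same stretch of 1192 bases in which no other gene is annotated on their strand, and which holds the non-coding control region and, on the other strand, MT-TP. MT-TW is followed by 324 such bases before MT-CO1. MT-TQ, on the other strand, has 4874 such bases on its longer side.

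Between 8042435 and 10683593 reads were counted per library (median 9874622). The deposited values are these reads divided by a size factor per library, and they are called normalized reads here, with 1 kilo-read for 1000 of them. Rows with at least 10 normalized reads in at least 3 libraries were tested, which kept 19373 rows, 27 of them mitochondrial (13 mRNA, 2 rRNA and 12 tRNA genes). Of 10 myelomonocytic marker genes, 9 had at least 10 normalized reads in every library, and PTPRC was listed at 0. Their summed level was 62137 to 69374 normalized reads in untreated, 38690 to 56338 in DAC, 42123 to 59643 in ATRA and 34305 to 36865 in DAC + ATRA libraries. MPO was the largest part of the sum, with means of 52578, 26797, 33292 and 15054 in the groups in this order, while CEBPA (7791, 14951, 12596 and 12930) and LYZ (164, 806, 179 and 1097) had higher means in the treated groups. The 4 T cell and the 4 epithelial markers summed to at most 21.0 and 25.9 normalized reads in any library, and the erythroid markers HBB and HBA1 were at 0, with KLF1 between 58.1 and 123. The summed level of 4 B cell markers was 133 to 143 normalized reads in untreated, 523 to 538 in DAC, 231 to 375 in ATRA and 1322 to 1404 in DAC + ATRA libraries, almost all of it CD79A (MS4A1 stayed under 3). The part of these marker levels in the results was not tested. Reads were counted per annotated transcript and 128997 rows had no read in any library, so that shares of counted reads are not shares of all RNA.

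Mitochondrial transcripts took a large part of all counted reads in every group. The share was 41.7% ± 1.04 (SD, n = 3) in untreated cells, 38.8% ± 1.67 with DAC, 40.2% ± 1.21 under ATRA and 37.6% ± 1.105 with DAC + ATRA. In single libraries it ran from 40.6 to 42.5% in untreated cells, 37.0 to 40.4% with DAC, 38.9 to 41.1% with ATRA and 36.3 to 38.3% with DAC + ATRA. The DAC + ATRA library 12, with the fewest counted reads, had the lowest share. In bulk RNA, fewer cells of a kind and less RNA per cell cannot be told apart. The untreated libraries were above all 6 libraries that received DAC, while the ATRA libraries overlapped both. The 6 libraries with DAC were lower than the 6 without by 2.84 percentage points (38.2 against 41.0%). The exact two-sided permutation test within ATRA strata gave p = 0.005, the smallest it can give with 400 arrangements, and 0.05 after adjustment over 10 tests, which is not under 0.05. For ATRA the difference was −1.35 points (exact permutation p = 0.085, adjusted 0.17).

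**Figure D1:**
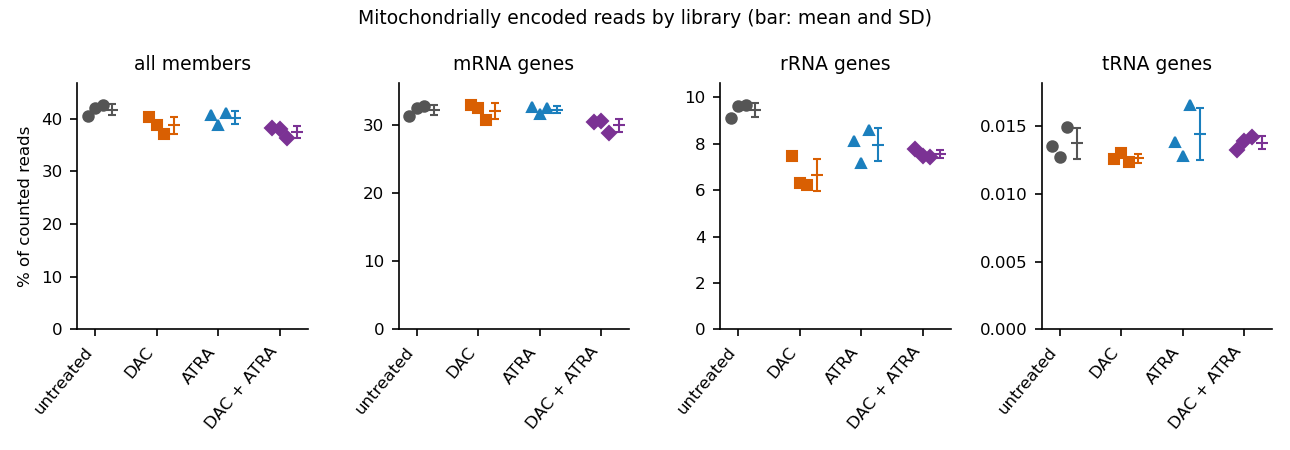
Percent of counted reads on all mitochondrial genes and on mRNA, rRNA and tRNA genes (vertical axes, from 0), with 1 point per library and the mean ± SD of each group at its right. The untreated rRNA points (9.10 to 9.64%) lie above those of all treated libraries (6.20 to 8.59%), whereas the mRNA points of untreated, DAC and ATRA libraries overlap.

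The mRNA and rRNA parts of this share did not move alike. Mitochondrial mRNAs held 32.3% ± 0.746 of counted reads in untreated cells, 32.1% ± 1.11 with DAC, 32.3% ± 0.511 under ATRA and 30.0% ± 0.994 with DAC + ATRA. The DAC effect on this share was −1.23 points (exact permutation p = 0.075, adjusted 0.17) and the ATRA effect −1.06 points (exact permutation p = 0.105, adjusted 0.175). The rRNAs held 9.10 to 9.64% of counted reads in untreated, 6.20 to 7.45% in DAC, 7.16 to 8.59% in ATRA and 7.43 to 7.77% in DAC + ATRA libraries, so the untreated libraries did not overlap with any treated group. On the log2 scale, the ratio of rRNA to mRNA reads was −1.77 ± 0.015 in untreated cells, −2.28 ± 0.118 with DAC, −2.02 ± 0.114 under ATRA and −1.99 ± 0.042 with DAC + ATRA. Averaged over the strata of the other agent, the DAC effect on the ratio was −0.23 (exact permutation p = 0.065, adjusted 0.17) and the ATRA effect 0.02 (exact permutation p = 0.86, adjusted 0.935). These averages hide strata that differ. ATRA libraries (−2.15 to −1.92) were all below untreated ones (−1.79 to −1.76), but DAC + ATRA libraries (−2.04 to −1.96) were all above DAC libraries (−2.37 to −2.14). DAC libraries were below untreated ones, whereas DAC + ATRA and ATRA libraries overlapped. In another version, the denominator was the reads on nuclear protein-coding rows plus the mitochondrial reads of the numerator. The DAC effect on the share was then −3.16 points for all members and −2.26 points for the mRNAs. The exact permutation p was 0.005 and 0.01, and the adjusted p was 0.05 for both over the same 10 tests.

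The level of each mRNA per kilobase spread widely within untreated cells. MT-CO2 and MT-CO3, subunits of cytochrome c oxidase (complex IV), were highest with 609 ± 24.1 and 592 ± 16.0 kilo-reads per kb, and their ranges overlapped. MT-CO1, the catalytic subunit of the same complex, followed with 469 ± 19.9 kilo-reads per kb, then MT-ND4 of complex I with 381 ± 36.1 kilo-reads and the ATP synthase subunit MT-ATP6 with 250.4 ± 11.9 kilo-reads. MT-ND2 and MT-ND1, also of complex I, had 169.9 ± 7.74 and 155 ± 11.1 kilo-reads per kb with overlapping ranges. MT-ND4L (135 ± 6.46 kilo-reads) and MT-ATP8 (122 ± 6.26 kilo-reads) were next. Their reads were divided by the bases that no other gene covers, since these genes overlap MT-ND4 and MT-ATP6. How reads across such overlaps were counted is not known, so the ranks of these short genes may depend on it. MT-ND4L also shares an mRNA with MT-ND4, so their values need not stand for separate mRNAs. MT-CYB, the cytochrome b subunit of complex III, had 80.3 ± 6.06 kilo-reads per kb and overlapped MT-ND5 with 72.9 ± 8.69 kilo-reads. MT-ND3 had 56.0 ± 4.60 kilo-reads, and MT-ND6, the mRNA of the other template strand, was lowest with 11.97 ± 1.83 kilo-reads, so that MT-ND3 exceeded it 4.67-fold. The 5 highest and 3 lowest mRNAs kept their ranks in all 4 groups. MT-CYB moved from rank 10 in untreated and ATRA-treated cells to rank 8 in both groups with DAC. It passed MT-ND4L and MT-ATP8, so that this move in rank has the same limit. The rRNAs had 440 ± 11.3 (MT-RNR2) and 177 ± 18.5 (MT-RNR1) kilo-reads per kb, but these are what remained after rRNA depletion and cannot be compared with the mRNAs.

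**Figure D2:**
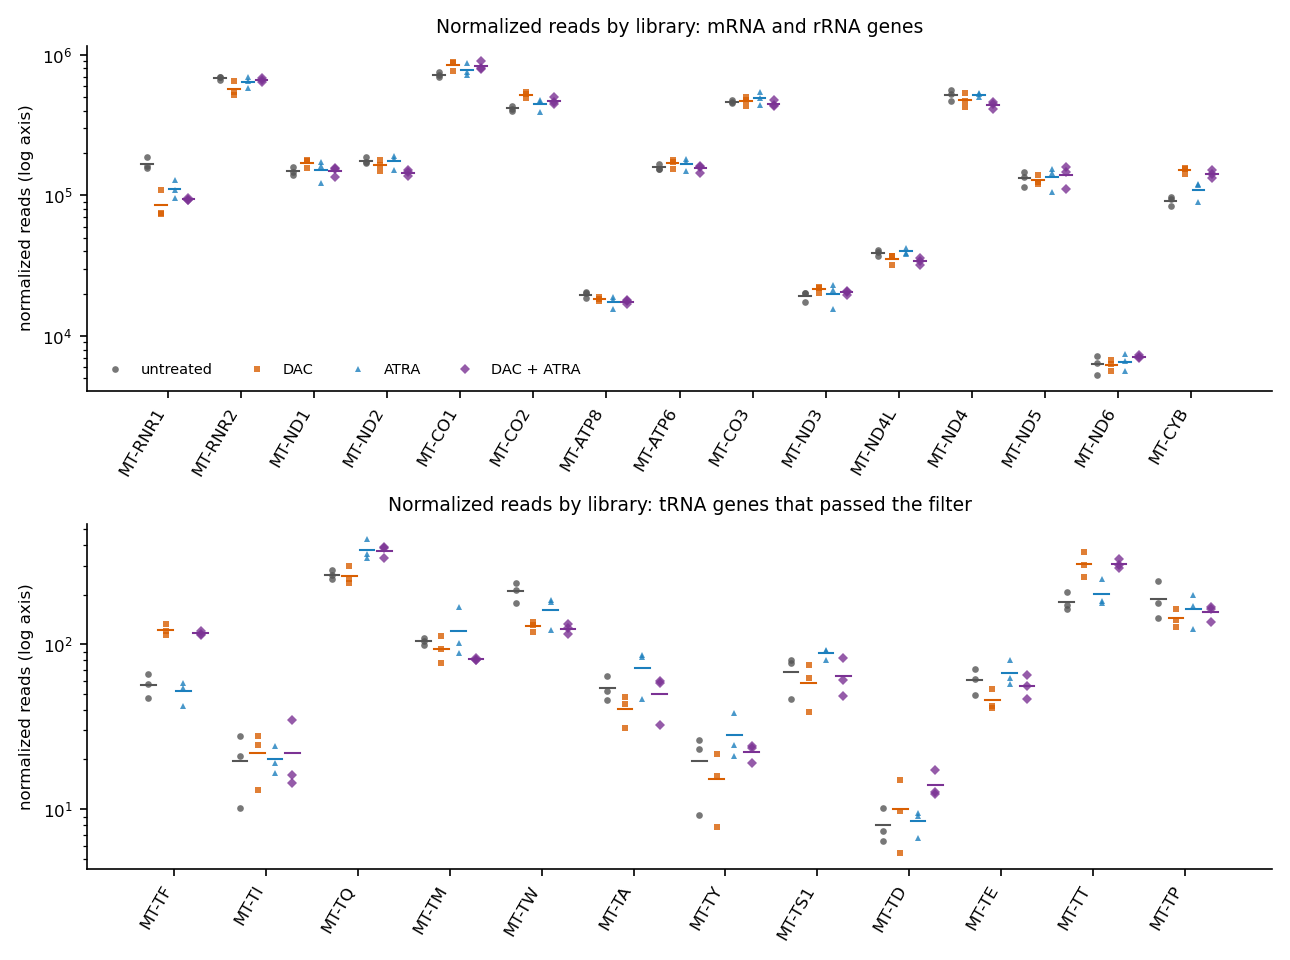
Normalized reads (log axes) of the 15 mRNA and rRNA genes (top) and the 12 tested tRNA genes (bottom) in gene order, with 1 point per library and a line at each group mean. MT-TF, MT-TT and MT-CYB are higher in all 6 libraries with DAC than in the untreated ones, and MT-RNR1 is lower in every treated library.

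DAC versus untreated cells asked how the hypomethylating agent alone moves these transcripts. Of the 27 tested members, 4 rose (MT-TF, MT-TT, MT-CYB and MT-CO2) and 3 fell (MT-RNR1, MT-TW and MT-RNR2) at an adjusted p under 0.01 (limma, Benjamini-Hochberg over all rows). Over all 19373 rows, 22.2% were called higher and 11.3% lower in this comparison. The share of members called was thus near or below that of all rows, and their median log2 fold change was −0.04 against 0.05 for all rows. Relative to untreated cells, ATRA alone called 0 members higher and 1 lower (MT-RNR1), where 5.11% and 1.87% of all rows were called. At an unadjusted limma p under 0.05 there were 5 of 27 members with ATRA, against 22.5% of all rows. With ATRA edgeR and DESeq2 each called 1 member higher (MT-TQ) and 1 lower, against 7.19% and 3.82% of the rows they tested. For DAC + ATRA versus untreated cells, 4 members rose (MT-TF, MT-TT, MT-CYB and MT-TQ) and 3 fell (MT-RNR1, MT-TW and MT-ND2), against 25.5% and 16.1% of all rows. The comparisons with untreated cells share the same 3 control libraries. Other scalings moved the median of all rows by over 0.1, from 0.05 to −0.15 with DAC and from 0.05 to −0.20 with DAC + ATRA when scaled by nuclear reads. On that scale, 4 members were higher and 7 lower with DAC and 3 higher and 9 lower with DAC + ATRA, and of all rows 17.5% were higher and 18.0% lower with DAC and 19.6% and 24.2% with DAC + ATRA. With ATRA, scaling by library size called 0 members higher and 2 lower (all rows 4.42% and 2.86%), and size factors from nuclear protein-coding rows 1 higher (MT-CYB) and 0 lower (all rows 5.18% and 2.20%).

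**Figure D3:**
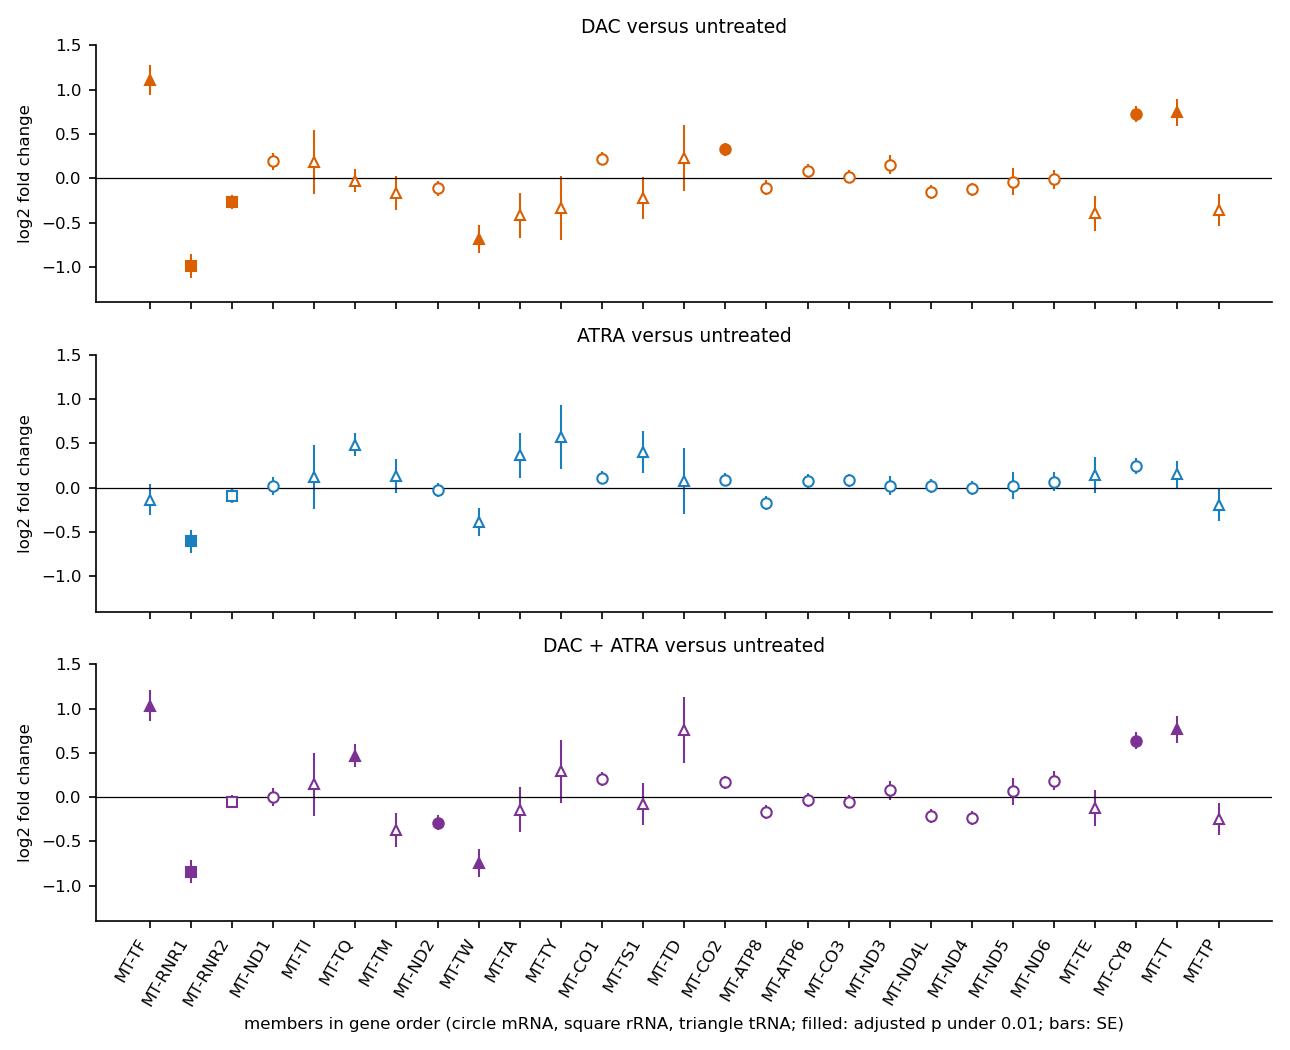
Log2 fold changes (vertical axes) with SE bars for the 27 tested members in gene order, for DAC, ATRA and DAC + ATRA versus untreated cells. Filled symbols passed the threshold, 7 with DAC, 1 under ATRA and 7 with DAC + ATRA, and the remaining symbols lie mostly within 0.5 of 0.

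The small subunit rRNA MT-RNR1 (12S) fell in all 3 treatments. Its values were 155, 189 and 161 kilo-reads in untreated libraries, 109, 74.7 and 73.9 kilo-reads with DAC, 129, 109 and 95.8 kilo-reads with ATRA, and 92.4, 95.8 and 92.7 kilo-reads with DAC + ATRA. All untreated libraries were higher than all treated ones, and DAC library 4 was at the level of ATRA library 8. MT-RNR1 fell by 0.99 ± 0.132 (SE) on the log2 scale with DAC (limma adjusted p = 1.3e-05) and by 0.84 ± 0.132 with DAC + ATRA (adjusted p = 5.6e-05). With ATRA it fell by 0.61 ± 0.132 (adjusted p = 0.0057). The ATRA call was lost without ATRA library 8 or 9 or untreated library 2 or 3 (adjusted p between 0.013 and 0.11), and with scaling by nuclear reads (adjusted p = 0.011), nuclear protein-coding size factors (0.025), a pseudocount of 0.1 (0.0105) or no filter (0.16). DAC + ATRA did not pass the threshold against DAC (log2 difference 0.15 ± 0.132, adjusted p = 0.55) or against ATRA (−0.24 ± 0.132, adjusted p = 0.17). In the combination the value was 0.76 ± 0.187 higher on the log2 scale than the sum of both single-agent changes. This interaction had an adjusted p of 0.037 by limma, above the threshold, and 0.00997 by DESeq2, below it.

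The large subunit rRNA MT-RNR2 (16S) changed less than MT-RNR1. It had 666, 692 and 699 kilo-reads in untreated libraries, 653, 547 and 518 kilo-reads with DAC, 701, 577 and 652 kilo-reads with ATRA, and 658, 685 and 646 kilo-reads with DAC + ATRA. The DAC libraries were below the untreated ones, although library 4 came close, and the other groups overlapped them. MT-RNR2 fell by 0.27 ± 0.077 with DAC (limma adjusted p = 0.0066). This call held in 5 of the 12 fits that left out a library, and was lost without any of untreated libraries 1, 2 and 3, DAC libraries 5 and 6, ATRA library 9 or DAC + ATRA library 12 (adjusted p up to 0.067). It was also lost by DESeq2 (adjusted p = 0.0497), with no filter (0.11) and with at least 10 normalized reads in every library (0.016), while scaling by nuclear reads gave −0.47 (adjusted p = 0.0056). With ATRA the log2 fold change was −0.10 ± 0.077 (adjusted p = 0.53) and with DAC + ATRA −0.05 ± 0.077 (adjusted p = 0.62), and the latter was −0.30 (adjusted p = 0.038) when scaled by nuclear reads. Both rRNAs come from the same precursor, and the number of MT-RNR1 reads per MT-RNR2 read was 0.233, 0.273 and 0.231 in untreated libraries. It was 0.167, 0.137 and 0.143 with DAC, 0.183, 0.188 and 0.147 with ATRA, and 0.141, 0.140 and 0.144 with DAC + ATRA. This ratio does not depend on the size factor, and every treated library was below the untreated ones. In hg38, 43.6% of the 50-base windows of MT-RNR1 and 15.7% of those of MT-RNR2 have an exact copy in the nuclear genome. The 3 nuclear look-alike rows with a mean of at least 10 normalized reads, MTRNR2L8, MTRNR2L1 and MTRNR2L12, had means of 13.97, 11.1 and 33.8. Remaining rRNA reads also depend on how well each library was depleted, and that could not be checked on cytosolic rRNA, since of 24 listed symbols 1 was in the table and 0 passed the filter.

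Of the 13 mRNAs, MT-CYB, which encodes cytochrome b, showed the largest change. It had 96.9, 94.1 and 83.8 kilo-reads in untreated libraries, 157, 155 and 143 kilo-reads with DAC, 121, 118 and 90.1 kilo-reads with ATRA, and 142, 152 and 134 kilo-reads with DAC + ATRA. All libraries with DAC were above all libraries without it. MT-CYB rose 1.66-fold with DAC (log2 fold change 0.73 ± 0.091, limma adjusted p = 3.5e-07) and 1.56-fold with DAC + ATRA (0.64 ± 0.091, adjusted p = 1.8e-06). Both calls held in every alternative and without each library, and the latter value was 0.39 when scaled by nuclear reads. With ATRA the log2 fold change was 0.25 ± 0.091 (adjusted p = 0.082), and ATRA library 9 was within the untreated range. Without that library it was 0.38 (adjusted p = 7.6e-05), and with nuclear protein-coding size factors it was called at 0.23 (adjusted p = 0.0091). Only 1.65% of the 50-base windows of MT-CYB have an exact nuclear copy.

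MT-CO2, which carries the copper site that accepts electrons from cytochrome c, had 400.4, 433 and 415 kilo-reads in untreated and 543, 528 and 495 kilo-reads in DAC libraries. ATRA libraries had 481, 465 and 389.9 kilo-reads and DAC + ATRA libraries 459.6, 498 and 449 kilo-reads. The DAC and the DAC + ATRA libraries were above all untreated ones, and the ATRA libraries overlapped them. MT-CO2 rose 1.25-fold with DAC (0.33 ± 0.074, limma adjusted p = 0.00076). The DAC value was 0.12 (adjusted p = 0.00998) when scaled by nuclear reads, 0.17 with nuclear protein-coding size factors and 0.20 by library size, and the call was lost with no filter (adjusted p = 0.030). Its log2 fold change with DAC + ATRA was 0.17 ± 0.074 (adjusted p = 0.053), and −0.08 when scaled by nuclear reads, but it was called with only the groups compared in the fit (0.0019) and without ATRA library 9 (0.0021). MT-CO1 was close to the threshold with DAC (0.22 ± 0.075, adjusted p = 0.019) and with DAC + ATRA (0.21 ± 0.075, adjusted p = 0.024), and these values were 0.019 (adjusted p = 0.87) and −0.042 (adjusted p = 0.70) when scaled by nuclear reads. With only the groups compared in the fit, MT-CO1 was called in both (adjusted p = 0.0014 and 0.00055), as it was without ATRA library 7 (0.0070 and 0.0091) and, with DAC, without DAC library 6 (0.0079).

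MT-ND2, a membrane subunit of complex I, had 171, 186 and 174 kilo-reads in untreated libraries and 147, 151 and 137 kilo-reads with DAC + ATRA, without overlap. It had 178, 164 and 149 kilo-reads with DAC and 191, 182 and 153 kilo-reads with ATRA. It fell by 0.29 ± 0.081 with DAC + ATRA (limma adjusted p = 0.0046), and with DAC its log2 fold change was −0.12 ± 0.081 (adjusted p = 0.26). With DAC it was called under every other scaling, at −0.32 (adjusted p = 9.2e-05) by nuclear reads, −0.24 (7.7e-05) by library size and −0.28 (0.00035) with nuclear protein-coding size factors, and the DAC + ATRA value by nuclear reads was −0.54. The DAC + ATRA call was lost without untreated library 1, 2 or 3 or DAC + ATRA library 10 or 12 (adjusted p between 0.0101 and 0.037), by DESeq2 (0.021), with no filter (0.0501), and with protein-coding rows alone or at least 10 normalized reads in every library (0.0103 for both). The complex I mRNAs MT-ND4 and MT-ND4L, which overlap and are translated from a shared mRNA, had log2 fold changes of −0.24 ± 0.078 (adjusted p = 0.013) and −0.21 ± 0.079 (adjusted p = 0.031) with DAC + ATRA. Both were called under every other scaling, at −0.49 (adjusted p = 0.0025) and −0.46 (3.5e-06) by nuclear reads, as was MT-ND4L with DAC (−0.28 to −0.35) and, by library size alone, MT-ND4 with DAC (−0.26).

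With the deposited scaling, the other mRNAs passed in none of the comparisons with untreated cells. Under other scalings MT-ATP8, MT-CO3 and MT-ATP6 were called lower. MT-ATP8 had log2 fold changes of −0.10 with DAC and −0.17 with DAC + ATRA, which the other 3 scalings put at −0.23 to −0.31 and −0.30 to −0.41 (each called), and under ATRA its −0.17 became −0.24 by library size and −0.28 by nuclear reads (both called). MT-CO3 was called with DAC + ATRA under the same 3 scalings (−0.18 to −0.30, against −0.05), and with DAC by library size and nuclear reads (−0.11 and −0.19, against 0.02). MT-ATP6 was called with DAC + ATRA by library size and nuclear reads (−0.18 and −0.28, against −0.03). MT-ND1, MT-ND3, MT-ND5 and MT-ND6 were called against untreated cells in none of the alternatives. Group means ran from 148 to 169.5 kilo-reads for MT-ND1, from 449 to 493 kilo-reads for MT-CO3, from 156 to 169 kilo-reads for MT-ATP6 and from 17.5 to 19.7 kilo-reads for MT-ATP8. They ran from 19.4 to 21.5 kilo-reads for MT-ND3 and from 128 to 139 kilo-reads for MT-ND5. MT-ND6, the single mRNA with the light strand as template, had 7.18, 5.28 and 6.403 kilo-reads in untreated libraries, 6.28, 5.64 and 6.71 kilo-reads with DAC, 6.63, 5.66 and 7.41 kilo-reads with ATRA, and 6.94, 7.09 and 7.29 kilo-reads with DAC + ATRA. The groups overlapped, except that every DAC + ATRA library was above every DAC library. The log2 ratio of MT-ND6 to the 12 other mRNAs was −8.87 ± 0.26 in untreated, −8.997 ± 0.199 in DAC, −8.87 ± 0.26 in ATRA and −8.72 ± 0.10 in DAC + ATRA libraries. The DAC effect on it was 0.01 (exact two-sided permutation p = 0.935, adjusted 0.935) and the ATRA effect 0.14 (exact permutation p = 0.3, adjusted 0.43).

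The make-up of the mitochondrial mRNA pool is a second view that needs no size factor. MT-CYB held 3.14% ± 0.282 of the mitochondrial mRNA reads in untreated cells, 4.77% ± 0.102 with DAC, 3.56% ± 0.351 under ATRA and 4.75% ± 0.0803 with DAC + ATRA. MT-CO2 went from 14.3% ± 0.244 in untreated cells to 16.4% ± 0.344 with DAC and 15.6% ± 0.0534 with DAC + ATRA. MT-CO1 held 24.8% ± 1.38 in untreated cells, 26.5% ± 0.422 with DAC and 27.8% ± 0.395 with DAC + ATRA. On the other side, MT-ND4 held 17.9% ± 1.26 in untreated cells, 15.0% ± 0.750 with DAC and 14.7% ± 0.449 with DAC + ATRA. MT-ND2 held 6.07% ± 0.171, 5.15% ± 0.13 and 4.83% ± 0.13, MT-CO3 15.9% ± 0.195, 14.8% ± 0.107 and 14.9% ± 0.107, and MT-ND4L 1.34% ± 0.0319, 1.11% ± 0.0262 and 1.13% ± 0.0198 in these groups. MT-ATP8 held 0.676% ± 0.0443, 0.577% ± 0.0239 and 0.585% ± 0.0312, and its share in ATRA libraries (0.573% ± 0.0481) was also below that of every untreated library. For each of these 8 mRNAs, the 3 untreated libraries did not overlap with the 6 libraries that received DAC, which is given as a description. Shares of a pool are tied to each other, so that a higher share of MT-CO1, the largest component, lowers the rest.

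**Figure D4:**
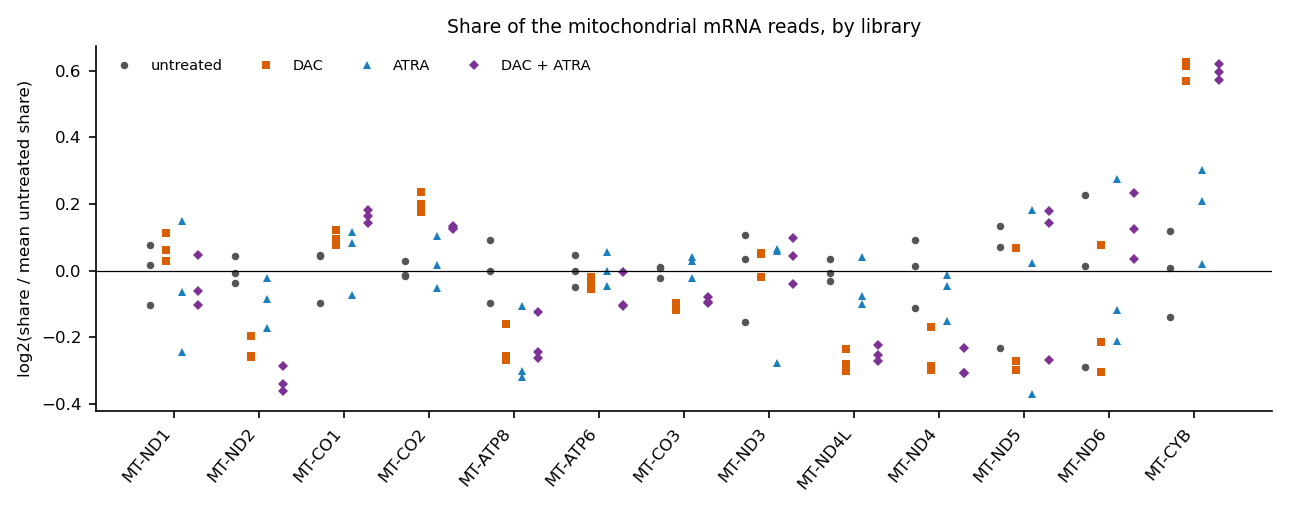
Share of each mRNA among the mitochondrial mRNA reads of a library, as log2 of the share over the mean untreated share (vertical axis), with 1 point per library. MT-CYB stands highest with DAC and DAC + ATRA, MT-ND2, MT-ND4L and MT-ND4 lie below 0 in all 6 of these libraries, and MT-ND5 and MT-ND6 spread widely within groups.

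The tRNA genes had few reads, and which of them were counted followed their position. The 12 that passed the filter each had a stretch of at least 70 bases on 1 side in which no gene is annotated on their strand (70 to 6634 bases) and had 124 to 3902 reads over the 12 libraries. The other 10 had at most 31 such bases and 0 to 14 reads, and 8 of them had no read in any library. How fragments that reach into a neighbouring gene were counted is not given in the sources used here, and whether the tRNA rows hold mature tRNAs or longer fragments was not tested. Of the genes below the filter, MT-TL1 had 1 read and MT-TS2 had 14, which were 8 in untreated and 6 in ATRA libraries. All tRNA genes together held at most 0.0165% of counted reads in any library, and the log2 ratio of tRNA to mRNA reads was between −11.35 and −10.94. The DAC effect on this ratio was −0.03 (exact two-sided permutation p = 0.675, adjusted 0.84) and the ATRA effect 0.14 (exact permutation p = 0.07, adjusted 0.17).

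**Figure D5:**
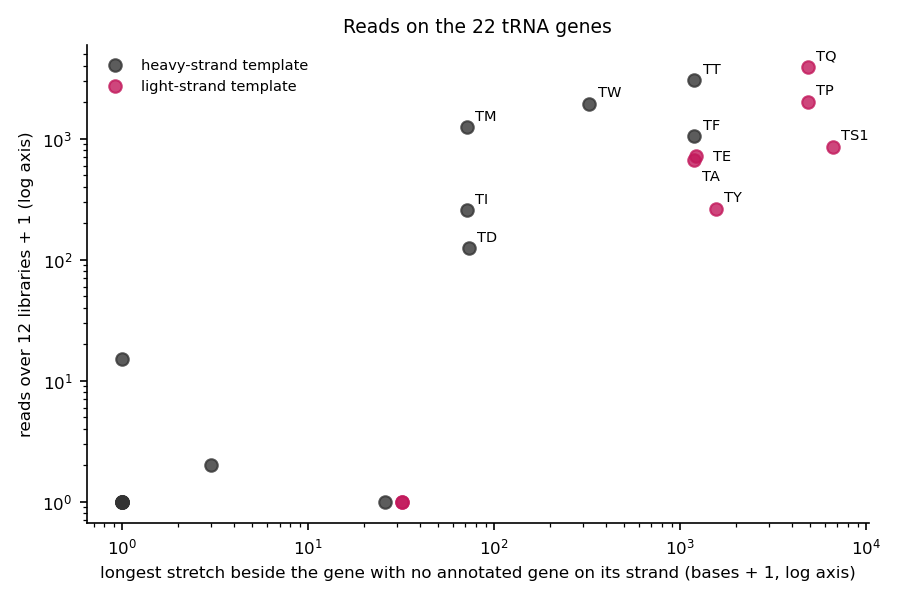
Reads over the 12 libraries for each of the 22 tRNA genes (vertical axis, + 1, log scale) against the longest stretch beside the gene with no annotated gene on its strand (horizontal axis, bases + 1, log scale), colored by template strand. The 12 genes with at least 70 such bases have 124 to 3902 reads, and the 10 with at most 31 have 0 to 14, with several points at 0 on top of each other.

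MT-TF, the tRNA gene upstream of MT-RNR1, showed the largest rise of all members. It had 66.2, 57.3 and 47.1 normalized reads in untreated libraries, 121, 114 and 133 with DAC, 58.1, 54.6 and 42.5 with ATRA, and 116, 120 and 114 with DAC + ATRA. All libraries with DAC were above all libraries without it. It rose 2.16-fold with DAC (log2 fold change 1.11 ± 0.172, limma adjusted p = 8.0e-06) and 2.05-fold with DAC + ATRA (1.03 ± 0.172, adjusted p = 1.6e-05), while with ATRA its log2 fold change was −0.13 ± 0.172 (adjusted p = 0.72). Its neighbour MT-RNR1 moved the other way, and the number of MT-TF reads per 1000 MT-RNR1 reads was 0.426, 0.304 and 0.292 in untreated and 0.452, 0.502 and 0.443 in ATRA libraries. It was 1.11, 1.53 and 1.81 with DAC and 1.25, 1.25 and 1.23 with DAC + ATRA.

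MT-TT, the tRNA gene that follows MT-CYB, had 209, 164 and 173 normalized reads in untreated libraries, 302, 365 and 255 with DAC, 248, 184 and 177 with ATRA, and 291, 332 and 303 with DAC + ATRA. Again no library with DAC overlapped with those without it. It rose 1.68-fold with DAC (0.75 ± 0.151, limma adjusted p = 0.00024) and 1.70-fold with DAC + ATRA (0.77 ± 0.151, adjusted p = 0.00014). MT-TT and MT-CYB kept pace with each other, with 1.74 to 2.15 MT-TT reads per 1000 MT-CYB reads in untreated, 1.79 to 2.36 in DAC, 1.56 to 2.05 in ATRA and 2.05 to 2.26 in DAC + ATRA libraries. MT-CYB, MT-TT and MT-TF follow each other among the genes of their strand, with MT-TP on the other strand and the control region between MT-TT and MT-TF. Neither MT-TT nor MT-TF has a 50-base window with an exact nuclear copy.

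MT-TW, the tRNA gene after MT-ND2, fell. It had 213, 179 and 236 normalized reads in untreated libraries, 132, 136 and 120 with DAC, 185, 122 and 179.8 with ATRA, and 125, 133 and 116 with DAC + ATRA. The untreated libraries were above all libraries with DAC, and ATRA library 8 was at the level of the latter. MT-TW fell by 0.69 ± 0.159 with DAC (limma adjusted p = 0.00097, and 0.011 without untreated library 3) and by 0.74 ± 0.159 with DAC + ATRA (adjusted p = 0.00036). With ATRA its log2 fold change was −0.38 ± 0.159 (adjusted p = 0.14). MT-TQ has the light strand as template. It had 281, 249 and 265 normalized reads in untreated libraries, 298, 237 and 248 with DAC, 355, 332 and 434 with ATRA, and 334, 382 and 388 with DAC + ATRA, and all libraries with ATRA were above all libraries without it. It rose with DAC + ATRA versus untreated cells (0.47 ± 0.131, limma adjusted p = 0.0038), a call lost without untreated library 2 or 3 or DAC + ATRA library 11 or 12 (adjusted p up to 0.024). It was also lost under every other scaling, at 0.22 (adjusted p = 0.17) by nuclear reads, 0.32 (0.045) by library size and 0.34 (0.039) with nuclear protein-coding size factors. With ATRA alone its log2 fold change was 0.49 ± 0.131 (adjusted p = 0.013). Every 50-base window of MT-TW and of MT-TQ has an exact copy in the nuclear genome, so that reads of these genes could not be assigned with certainty.

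With the deposited scaling, the other 8 tested tRNA genes passed in none of the comparisons with untreated cells. Among the alternatives, 1 of them was called once, MT-TM with DAC + ATRA when scaled by nuclear reads (−0.61, adjusted p = 0.0096, against −0.36). Their group means ran from 7.96 to 14.1 normalized reads for MT-TD, 15.1 to 27.99 for MT-TY, 19.6 to 21.8 for MT-TI and 40.6 to 72.0 for MT-TA. They ran from 45.6 to 66.9 for MT-TE, 58.6 to 88.2 for MT-TS1, 81.0 to 119.7 for MT-TM and 144 to 189 for MT-TP. At these depths, 3 reads equal 2.50 to 3.71 normalized reads, and the standard error of the log2 fold change was 0.37 for MT-TD, the tested member with the fewest reads.

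DAC + ATRA was also set against each agent. Against DAC, 1 member rose (MT-TQ, 0.50 ± 0.131, limma adjusted p = 0.0095) and 0 fell, with 4 members at an unadjusted p under 0.05 (25.4% of all rows), and edgeR and DESeq2 called the same numbers (10.3% and 6.34% of the rows they tested). Of all rows, 5.18% were called higher and 3.59% lower. The MT-TQ call was lost without any of 8 libraries (untreated 1, 2 and 3, DAC 5 and 6, DAC + ATRA 10, 11 and 12, adjusted p up to 0.054), with scaling by nuclear reads (0.025) or library size (0.016), a pseudocount of 0.1 (0.012) or no filter (0.021), and without DAC library 4 MT-RNR2 was called as well. Against ATRA, 3 members rose (MT-TF by 1.17 ± 0.172, MT-TT by 0.62 ± 0.151 and MT-CYB by 0.39 ± 0.091, adjusted p = 4.0e-06, 0.0019 and 0.0012) and 0 fell, with 8 members at an unadjusted p under 0.05 (47.6% of all rows). DESeq2 called the same numbers (11.2% of its rows) and edgeR also 1 lower, MT-ND2 (30.5%). The MT-CYB call against ATRA was lost with no filter (adjusted p = 0.067) and when only the groups compared were fitted (0.0101), and its value was 0.25 by nuclear reads. It was also lost without DAC + ATRA library 11 (0.0116), and the MT-TT call was lost without that library (0.014) or ATRA library 8 (0.0123). Of all rows, 19.1% were called higher and 10.2% lower. With scaling by nuclear reads, 0 members were higher and 2 lower against DAC (all rows 4.67% and 4.96%), and 3 higher and 5 lower against ATRA (16.0% and 14.2%). Without ATRA library 9, 7 members were called against ATRA (26.7% of all rows), and without DAC + ATRA library 11 1 was (24.1%). The DAC by ATRA interaction, 0 when the log2 changes of both agents add up, was called for 0 members by limma and edgeR and for 1 (MT-RNR1) by DESeq2, against 1.51%, 1.37% and 2.15% of the rows tested by limma, edgeR and DESeq2. At an unadjusted limma p under 0.05 there were 4 of 27 (MT-RNR1, MT-RNR2, MT-CYB and MT-CO2), against 14.4% of all rows. Without ATRA library 9 the interaction was called for 2 members (2.95% of all rows) and without DAC library 4 for 1 (1.39%).

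Nuclear genes for the mitochondrial genome were examined by lists, with 1 row per symbol, the row with the highest mean. Such a row is a single annotated transcript and need not be a coding one. The kind of transcript was looked up only for named rows, so list counts and medians describe rows and need not follow the genes. Of 50 tested genes for mitochondrial DNA maintenance, transcription and RNA processing or decay, 3 rose and 15 fell with DAC and 4 rose and 13 fell with DAC + ATRA, with median log2 fold changes of −0.21 and −0.45, against 0.05 for all rows in both. Of all rows, 22.2% were called higher and 11.3% lower with DAC, and 25.5% and 16.1% with DAC + ATRA. With ATRA 2 fell (PPARGC1A and LRPPRC), where 1.87% of all rows were called lower, and the median was −0.17 against 0.00. By list, 6 of 14 transcription genes, 6 of 20 processing genes and 3 of 16 maintenance genes fell with DAC. LRPPRC, which binds and stabilizes mitochondrial mRNAs, had 5257, 4931 and 4718 normalized reads in untreated, 3522, 3109 and 2904 in DAC, 3945, 3456 and 3366 in ATRA and 2452, 2721 and 2671 in DAC + ATRA libraries. The untreated libraries were above all others, and LRPPRC fell by 0.65 ± 0.096, 0.47 ± 0.096 and 0.93 ± 0.096 (limma adjusted p = 4.2e-06, 0.0011 and 9.2e-09) in the 3 treatments. PPARGC1A, a coactivator that promotes mitochondrial biogenesis, had 99.3, 114.7 and 99.7 normalized reads in untreated, 53.0, 54.6 and 51.8 in DAC, 71.8, 47.3 and 56.6 in ATRA and 35.3, 28.4 and 45.7 in DAC + ATRA libraries. It fell by 0.96 ± 0.198, 0.84 ± 0.198 and 1.52 ± 0.198 (adjusted p = 0.00028, 0.0045 and 4.3e-07).

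By the same rule, the largest falls with DAC were those of the rows of TFB1M, an rRNA methyltransferase (−1.67 ± 0.356), POLG2, the accessory subunit of the mitochondrial DNA polymerase (−1.18 ± 0.204), and SSBP1, the mitochondrial single-stranded DNA-binding protein (−1.08 ± 0.307). These rows were low, with untreated and DAC means of 18.7 and 5.43 normalized reads for TFB1M, 85.9 and 37.8 for POLG2 and 28.8 and 12.9 for SSBP1. TFB1M was under 10 in every DAC library. FASTKD5, which is needed to process mRNA ends that no tRNA flanks (0.59 ± 0.121), the nuclease gene ENDOG (0.67 ± 0.130) and TYMP rose. TYMP, thymidine phosphorylase, was at 0 reads in all 3 untreated and all 3 ATRA libraries and at 42.2, 46.8 and 56.8 normalized reads with DAC and 39.8, 47.4 and 47.0 with DAC + ATRA, at least 17.6-fold and at least 16.2-fold higher than 3 reads per library. The TYMP row was tested only through the libraries with DAC, so its rise is a description only. With DAC + ATRA, TFB1M (−0.53 ± 0.356, limma adjusted p = 0.21) and ENDOG (0.09 ± 0.130, adjusted p = 0.59) were not called. POLG2 (−0.99 ± 0.204, adjusted p = 0.00022) and FASTKD5 (0.48 ± 0.121, adjusted p = 0.0017) kept their calls. The named rows of this comparison also included SSBP1 (−1.24 ± 0.307), PPRC1 (−1.098 ± 0.210), ESRRA (0.88 ± 0.220) and TK2 (0.92 ± 0.28). The rows of TYMP, POLG2 and SSBP1 are transcripts with a retained intron, and those of TFB1M and PPRC1 have no defined coding sequence, so they need not follow the coding transcripts of these genes.

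The nuclear-encoded subunits of the respiratory complexes gave the partners of the mitochondrial mRNAs, again with 1 row per symbol that need not be a coding transcript. Of 62 tested, 2 rose and 15 fell with DAC and 3 rose and 19 fell with DAC + ATRA, with medians of −0.31 and −0.33 (0.05 for all rows), whereas the 13 mitochondrial mRNAs had medians of 0.02 and 0.00. With ATRA the medians were −0.06 and 0.03. Falls with DAC numbered 5 of 26 in complex I, 2 of 8 in complex III, 2 of 11 in complex IV and 6 of 17 in complex V, and with DAC + ATRA 9, 3, 1 and 6. Of 18 genes for tRNA and rRNA modification, 2 rose and 3 fell with DAC and 3 rose and 7 fell with DAC + ATRA, and of 16 mitochondrial aminoacyl-tRNA synthetase genes, 1 rose and 2 fell with DAC + ATRA, while 1 fell with DAC (all rows 22.2% higher and 11.3% lower with DAC, 25.5% and 16.1% with DAC + ATRA).

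Double-stranded RNA from the mitochondrial genome can be sensed in the cytosol when it escapes. The 9 genes tested belong to this route or to double-stranded RNA sensing in general, which is not particular to mitochondrial RNA. With DAC 5 rose and 1 fell, and with DAC + ATRA 7 rose and 1 fell, where 22.2% and 25.5% of all rows rose and 11.3% and 16.1% fell. With ATRA 0 rose and 0 fell, where 5.11% of all rows rose and 1.87% fell. IFIH1 (MDA5), a sensor of long double-stranded RNA, had 143, 148 and 152 normalized reads in untreated, 336, 308 and 283 in DAC, 193, 189 and 168 in ATRA and 464, 566 and 612 in DAC + ATRA libraries. Each group stood apart from the next, and IFIH1 rose by 1.05 ± 0.129 with DAC (limma adjusted p = 2.3e-07) and by 1.87 ± 0.129 with DAC + ATRA (adjusted p = 5.1e-12). With ATRA its log2 fold change of 0.31 ± 0.129 did not pass the threshold (adjusted p = 0.15). DDX58 (RIG-I), MAVS, BAX and EIF2AK2 (PKR) rose in both comparisons as well, and TLR3 and BAK1 with DAC + ATRA. SUPV3L1, the helicase of the mitochondrial RNA degradosome, fell by 0.55 ± 0.166 with DAC (adjusted p = 0.0083) and by 0.97 ± 0.166 with DAC + ATRA (adjusted p = 2.4e-05). Its partner PNPT1, the polynucleotide phosphorylase, had log2 fold changes of −0.20 ± 0.157 (adjusted p = 0.32) and −0.30 ± 0.157 (adjusted p = 0.11). No value here measures double-stranded RNA, and a link of these changes to mitochondrial RNA was not tested. The paper describes the induction of RIG-I and MDA5 as following from derepressed transposable elements.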

How the data were processed

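RNA-seq of 12 U937 libraries was analysed. Per the labels and the paper, the authors depleted rRNA and prepared stranded paired-end libraries. The submitters' processing notes name FastQC, STAR, HTSeq, DESeq2 and hg38. Versions, counting mode and strand setting are not given in the sources used here. The deposited signal values are read counts divided by 1 size factor per library. All values (100%, tolerance 0.01 read) were whole multiples of a step per library, which gave back the reads, with size factors from 0.809 to 1.20. The columns name the group but not the replicate, so libraries carry the number of their column.

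All 19373 rows that passed the filter entered limma 3.58.1 (R 4.3.3; trended, robust empirical Bayes) after log2 transformation with a pseudocount of 1, with the 4 groups in a single fit, Benjamini-Hochberg adjustment and a threshold of 0.01. Log2 fold changes are on this scale and understate changes of low rows. Single values were compared by exact two-sided permutation within the strata of the other agent, adjusted over 10 tests at 0.05. edgeR 4.0.16 and DESeq2 1.42.0 on the recovered reads, other scalings, filters and thresholds, and leaving out each library were alternatives. The fit was tested on simulated data.

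Genes were placed with GENCODE 44. Nuclear copies are exact 50-base matches in BLAST 2.17.0 alignments of the mitochondrial chromosome to hg38. Named were all mRNA and rRNA genes, tRNA genes that passed the filter, nuclear look-alike rows with a mean of at least 10 and, from the maintenance, transcription and processing lists, the 3 largest and 3 smallest called log2 fold changes in each comparison with untreated cells. The genes of double-stranded RNA sensing, MT-TL1 and MT-TS2 were named after their values were seen. Members and lists were chosen with earlier results of these data known.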

Additional observations from a re-analysis of the deposited data

How the results depend on the processing

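No paired analysis was possible because the table's columns carry no replicate numbers. The alternative with size factors from nuclear protein-coding rows was chosen after seeing the data. The rises of MT-CYB, MT-TF and MT-TT and the fall of MT-RNR1 with DAC and with DAC + ATRA kept their calls in every alternative that tested them and without each library. The number of members called with DAC (7) was 12 when scaled by library size and 11 by nuclear reads, and with DAC + ATRA (7) it was 11, 12 and, when only the groups compared were fitted, 11. With ATRA (1) it was 2 at an adjusted p under 0.05, by DESeq2, by edgeR and by library size, and 0 with no filter or a pseudocount of 0.1. For DAC + ATRA versus DAC (1) it was 0 with no filter or a pseudocount of 0.1 and 2 by library size or nuclear reads. For DAC + ATRA versus ATRA (3) it was 7 at an adjusted p under 0.05 and with nuclear protein-coding size factors, and 8 by library size or nuclear reads. For the interaction (0) it was 1 at an adjusted p under 0.05 and by DESeq2. Leaving out each library gave 5 to 8 members with DAC, 0 to 1 with ATRA, 5 to 9 with DAC + ATRA, 0 to 2 against DAC, 1 to 7 against ATRA and 0 to 2 for the interaction. The ATRA count was 0 without ATRA library 8 or untreated library 2 or 3. Scaled by nuclear reads, the log2 fold changes with DAC + ATRA were −0.042 for MT-CO1 and −0.077 for MT-CO2. Without members with long nuclear copies, the DAC effect on the tRNA to mRNA ratio was 0.05 (log2). Without 1 library, effects that missed the threshold changed sign, with ranges of −0.0587 to 0.0832 for MT-ND6 to other mRNAs with DAC, −0.05996 to 0.0225 for tRNA to mRNA with DAC and −0.0075 to 0.052 for rRNA to mRNA with ATRA. Fewer genes or libraries in a fit follow from the construction of those alternatives, and otherwise the cause was not tested. The tRNA rows have the lowest depth, with 124 reads over all libraries for MT-TD.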
